A study of Mus musculus with 11 samples.

Results

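The 10 genes of arginine and polyamine metabolism described here are Arg1, Arg2, Nos2, Ass1, Odc1, Azin1, Sat1, Srm, Sms and Amd1. They were taken by gene name from both count tables. All 10 were found among the 54532 genes of the pancreas table and among the 46078 genes of the adipose table, which share 45260 genes. Sequenced were 2 control and 3 OA-AP libraries of pancreas, and 3 control and 3 OA-AP libraries of epididymal adipose tissue. OA-AP stands for obesity-related, alcohol-induced acute pancreatitis, and the sample labels name this group Model. All mice were wild-type C57BL/6, labelled as 16 weeks old, and the methods name males of the C57BL/6J substrain. A diet with 10 kcal% fat was fed to the control mice and one with 60 kcal% fat to the OA-AP mice, in both cases for 12 weeks. Saline (control) or ethanol at 2 g/kg (OA-AP) was then given in 2 intraperitoneal injections, 1 h apart, and organs were taken 12 h after the first. Fat diet, ethanol and pancreatitis therefore cannot be told apart in any comparison between the groups.

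Arginine is split by the arginases Arg1 and Arg2 into ornithine and urea, or oxidised by nitric oxide synthases such as Nos2 to nitric oxide and citrulline, from which Ass1 and Asl rebuild it. Ornithine decarboxylase (Odc1) turns ornithine into putrescine, and spermidine synthase (Srm) and spermine synthase (Sms) extend putrescine with aminopropyl groups from decarboxylated S-adenosylmethionine, the product of Amd1. Antizymes send Odc1 protein to the proteasome, Azin1 binds the antizymes in its place, and Sat1 acetylates spermidine and spermine for export or breakdown. The exocrine pancreas is known for a high spermidine content, and in mice Arg1 is widely used as a marker of alternatively activated macrophages.

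Pancreas libraries held 14188800 to 17238900 counts on genes and adipose libraries 20825200 to 27928100. Levels are CPM, counts relative to the library total scaled by its TMM factor within a tissue. Genes were called DEGs at an adjusted p under 0.05 (Benjamini-Hochberg, edgeR's quasi-likelihood test) together with a fold change of at least 1.5. Digestive enzyme and other acinar genes took 81.2% and 82.8% of the counts in control pancreas and 64.8% to 67.4% in OA-AP pancreas. The summed CPM of 14 acinar markers was 661375 and 776558 in the controls and 293565 to 372818 in the OA-AP pancreas. In every OA-AP library 13 of 14 were below both controls, against 29.4% of all genes tested. In bulk tissue fewer cells of a type and less RNA per cell cannot be told apart. The 10 adipocyte markers summed to 42806 to 45487 CPM in control and 34851 to 44408 CPM in OA-AP adipose tissue, where all 10 were detected. In every OA-AP library 2 of them were above and 3 below every control, against 26.4% and 26% of all genes tested. In adipose control library 2, acinar genes took 1.14% of the counts, against 0.0262% to 0.0378% in the other 5 adipose libraries. TMM factors gave a median log2 fold change over every tested gene of 0.04 in the pancreas and -0.01 in adipose tissue, and library totals alone gave 0.75 and -0.17.

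For Odc1, Sat1 and Amd1, 3 of the 5 genes whose change differed between the tissues, the bases upstream of the gene in mouse build GRCm38.p6 are shown. They come from RefSeq, in which 5 of the 10 genes were matched. Each is written in the direction of transcription, and bases inside the deposited gene were left out. Capitals mark matches on either strand to CACGTG (E-box, bound by Myc and Max), GGGCGG (GC box), TATANA (TATA box) or TGACG (core of a cAMP response element). The windows are chr12:17544623-17544793 on the plus strand for Odc1, chrX:155216450-155216699 on the minus strand for Sat1 and chr10:40302189-40302438 on the minus strand for Amd1.
Odc1: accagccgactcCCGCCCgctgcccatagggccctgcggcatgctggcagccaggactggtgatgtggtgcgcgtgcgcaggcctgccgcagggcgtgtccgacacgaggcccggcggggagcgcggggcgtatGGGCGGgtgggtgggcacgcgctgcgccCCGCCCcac
Sat1: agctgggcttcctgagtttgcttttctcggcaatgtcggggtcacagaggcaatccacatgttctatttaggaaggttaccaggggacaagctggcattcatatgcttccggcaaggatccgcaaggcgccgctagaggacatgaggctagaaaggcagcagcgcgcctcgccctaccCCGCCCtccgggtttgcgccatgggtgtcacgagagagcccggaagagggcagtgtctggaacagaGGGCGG
Amd1: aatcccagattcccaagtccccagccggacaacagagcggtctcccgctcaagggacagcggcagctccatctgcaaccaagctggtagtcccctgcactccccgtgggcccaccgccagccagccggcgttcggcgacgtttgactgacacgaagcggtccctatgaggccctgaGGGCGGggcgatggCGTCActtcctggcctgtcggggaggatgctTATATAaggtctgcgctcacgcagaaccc

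The Odc1 window of 171 bases held 3 GC boxes and the Sat1 window of 250 bases held 2. The Amd1 window held 1 GC box, 1 TATA box and 1 TGACG core, and none of the 3 windows held an E-box. The changes of Ass1 and Srm also differed between the tissues. The Ass1 window of 187 bases, not shown, held 0 matches to any of these letters, and Srm had no window. Of 32851 mouse promoter windows of 250 bases, 19.6% held a GC box within the 171 bases furthest from the start. This is the part kept for Odc1, where it ends at the deposited gene, so distances to the gene can differ from the other windows. Within all 250 bases 32.7% held a GC box. A TATA box was found in 22.6% and the TGACG core in 17.8% of windows of 250 bases, and an E-box in 6.02%. These matches describe letters only, and bases inside the genes or further upstream were not searched.

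Across the list the 2 tissues gave different counts. In the pancreas 3 of the 8 genes that passed the filter on low counts were DEGs, with Sat1 upregulated and Amd1 and Ass1 downregulated. Over all 12884 genes tested there, 29.8% were DEGs, 16.2% upregulated and 13.5% downregulated, so the share among the 8 genes was near this background. With library totals alone 4 of the 8 were DEGs, with Odc1, Sat1 and Arg2 upregulated and Amd1 downregulated. Of all 12884 genes, 6349 were DEGs in that run, 5843 upregulated and 506 downregulated, so this share too was near its background. In adipose tissue 5 of 10 genes were DEGs, namely Arg1, Arg2, Odc1, Srm and Azin1, all of them upregulated. Over the 15839 genes tested in adipose tissue 25.1% were DEGs, 12.1% upregulated and 13% downregulated. Among tested members, log2 fold changes had a median of 0.02 in the pancreas and 0.66 in adipose tissue, against 0.04 and -0.01 over all genes tested. The pancreas median leaves out Arg1 and Nos2, which had too few reads.

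**Figure D1:**
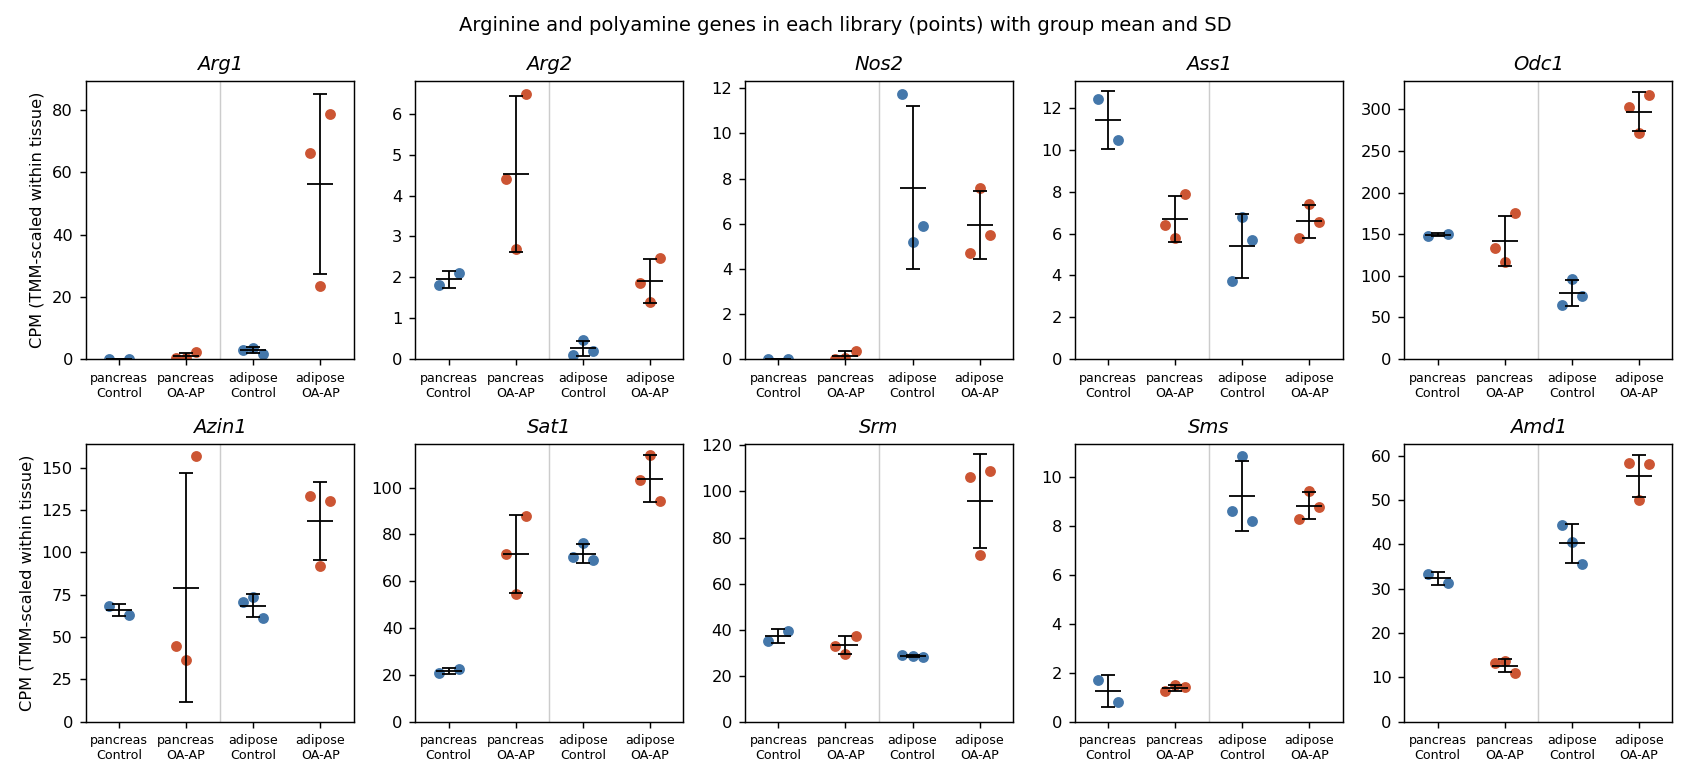
CPM (y axis, scaled within each tissue, linear, from 0) of the 10 genes in each of the 11 libraries (points), with the group mean and SD (bars); blue is control and red OA-AP. The 3 OA-AP adipose libraries lie above the 3 controls for Arg1, Arg2, Odc1, Azin1, Sat1, Srm and Amd1, whereas in the pancreas Amd1 and Ass1 lie below both controls and OA-AP library 3 stands apart for Azin1.

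Arg1 (ENSMUSG00000019987, chr10:24915221-24927484, minus strand), the cytosolic arginase, showed the largest change of the list in adipose tissue. Its levels there were 2.88, 3.69 and 1.77 CPM in the control libraries and 66.3, 23.6 and 78.6 CPM in the OA-AP libraries. All OA-AP libraries were above all controls, and OA-AP library 2 was well below the other two. The fold change was 20.4, a log2 fold change of 4.35 ± 0.52 (SE, adjusted p = 0.00193, edgeR's quasi-likelihood test). In the pancreas no Arg1 read was counted in either control library, and 6, 4 and 43 reads were counted in the OA-AP libraries, or 0.315, 0.229 and 2.25 CPM. Measured against a floor of 3 counts per control library, the mean OA-AP level was at least 3.35-fold higher, but most of it came from OA-AP library 3 and the gene fell below the filter for testing.

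Arg2 (ENSMUSG00000021125, chr12:79130777-79156301, plus strand), the mitochondrial arginase, was also upregulated in adipose tissue, from a level of only 3 to 11 reads per control library. It measured 0.111, 0.466 and 0.204 CPM in the controls and 1.87, 1.39 and 2.48 CPM in OA-AP, without overlap, at a log2 fold change of 2.89 ± 0.48 (SE, adjusted p = 0.00437). The highest control value was that of adipose control library 2, the library with acinar RNA, and without it the log2 fold change was 3.55. Control pancreas itself held 21 Arg2 reads in each library, and the part of acinar RNA in that adipose value was not tested. In the pancreas Arg2 measured 1.80 and 2.09 CPM in the controls and 4.41, 2.69 and 6.49 CPM in OA-AP, again without overlap. Its log2 fold change of 1.22 ± 0.42 (SE, adjusted p = 0.0562) missed the threshold. It passed without OA-AP library 2 (log2 fold change 1.48, adjusted p = 0.0139), with library totals alone (1.91), with no filter (1.29) and with a filter of 10 counts in every sample (adjusted p = 0.0498).

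The arginase isoforms thus took different shares in each tissue. As a share of summed arginase TPM, which corrects for gene length, Arg1 made up 94.3%, 83.5% and 84.7% in control adipose tissue and 95.8%, 91.6% and 95.3% in OA-AP. In the pancreas it made up 0% in both controls and 4.38%, 5.17% and 18.2% in OA-AP. The difference of means was 6.69 percentage points in adipose tissue (exact two-sided permutation test, p = 0.2, 0.267 after adjustment over 4 tests) and 9.24 points in the pancreas (exact p = 0.3, 0.3 after adjustment). The smallest p that 2 against 3 or 3 against 3 libraries allow is 0.1. Without adipose control library 1 the first difference was 10.1 points. The second was 4.78 points without pancreas OA-AP library 3 and -9.83 points when 1 TPM was added to both genes.

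Nos2 (ENSMUSG00000020826, chr11:78920787-78960254, plus strand), the inducible nitric oxide synthase, was not a DEG in adipose tissue. It measured 11.7, 5.17 and 5.89 CPM in the controls and 4.72, 7.60 and 5.51 CPM in OA-AP, and the groups overlapped. Its log2 fold change was -0.35 ± 0.35 (SE, adjusted p = 0.453), and 0.12 without adipose control library 1, the highest of the 6. In the pancreas 0 and 0 reads were counted in the controls and 0, 1 and 7 in OA-AP, so no fold is given. In adipose tissue the controls held 52 to 87 reads of Arg1 and 122 to 318 of Nos2, and OA-AP 491 to 1557 of Arg1 and 91 to 158 of Nos2.

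Ass1 (ENSMUSG00000076441, chr2:31470207-31520672, plus strand), argininosuccinate synthase, was lower in the OA-AP pancreas. It measured 12.4 and 10.5 CPM in the controls and 6.41, 5.78 and 7.90 CPM in OA-AP, without overlap, at a log2 fold change of -0.78 ± 0.20 (SE, adjusted p = 0.0216). This call was lost without control library 1 (adjusted p = 0.171), control library 2 (0.0795) or OA-AP library 1 (0.0826), and with library totals alone the log2 fold change was -0.08. In adipose tissue Ass1 measured 3.73, 6.78 and 5.72 CPM in the controls and 5.81, 7.40 and 6.57 CPM in OA-AP, which overlapped (log2 fold change 0.29 ± 0.24, SE, adjusted p = 0.377).

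Odc1 (ENSMUSG00000011179, chr12:17544794-17551505, plus strand), the enzyme of the first and often limiting step of polyamine synthesis, rose in adipose tissue. It measured 65.5, 96.2 and 76.2 CPM in the controls and 303, 271 and 318 CPM in OA-AP. The OA-AP libraries were all above the controls and close to each other. The fold change was 3.75, a log2 fold change of 1.91 ± 0.16 (SE, adjusted p = 0.000524). In the pancreas Odc1 measured 148 and 151 CPM in the controls and 133, 117 and 175 CPM in OA-AP, so the controls lay within the OA-AP range. The log2 fold change of -0.08 ± 0.18 (SE, adjusted p = 0.773) depended on the scaling, since it was 0.62 with library totals alone (adjusted p = 0.00877), below the shift of all genes.

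Azin1 (ENSMUSG00000037458, chr15:38487427-38519266, minus strand), the antizyme inhibitor that spares Odc1 from degradation, rose in adipose tissue from 70.9, 73.7 and 61.2 CPM to 133, 91.8 and 131 CPM. The groups did not overlap, and the log2 fold change was 0.79 ± 0.16 (SE, adjusted p = 0.00899). In the pancreas the controls measured 68.3 and 63.3 CPM and the OA-AP libraries 44.6, 36.2 and 157 CPM. OA-AP libraries 1 and 2 were thus below both controls and OA-AP library 3 far above them. The log2 fold change over all libraries was 0.27 ± 0.72 (SE, adjusted p = 0.806), and it was -0.75 without OA-AP library 3 (adjusted p = 0.000216).

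OA-AP library 3 of the pancreas also differed in neutrophil markers. The 10 markers summed to 1.80 and 2.79 CPM in the controls and to 14.6, 4.69 and 109 CPM in the OA-AP libraries. In every OA-AP library 9 of the 10 were above both controls, against 32.9% of all genes tested. At 0 in both controls were 4 of the 10, and of the 7 that were tested 0 were DEGs. OA-AP library 3 had the highest level of the 3 OA-AP libraries for Arg1, Arg2, Nos2, Ass1, Odc1, Azin1, Sat1 and Srm. The 10 macrophage markers summed to 83.2 and 42.7 CPM in the controls and 54.5 to 61.3 CPM in OA-AP, and no marker of the list was at 0 throughout. The 10 adipocyte markers summed to 37.9 and 54.1 CPM in the pancreas controls and 75.2 to 103 CPM in OA-AP pancreas. Of these, 3 were above both controls in every OA-AP library, against 32.9% of all genes tested, and Retn was at 0 in all 5 libraries. The part of these cells in the levels of the members was not tested.

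**Figure D2:**
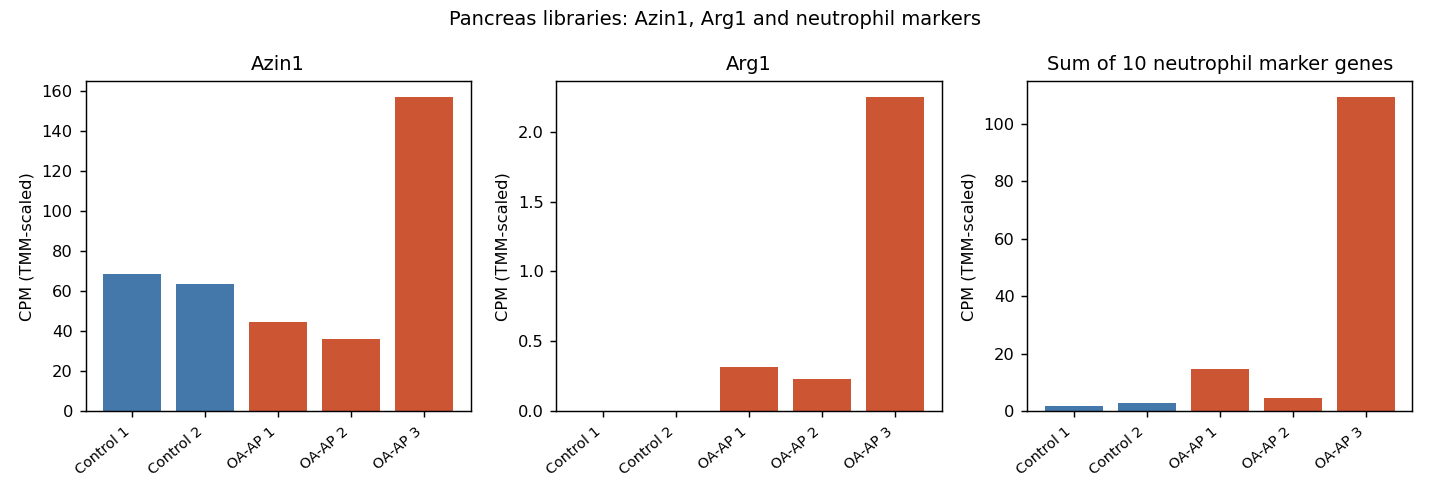
CPM (y axes, linear, from 0) of Azin1, of Arg1 and of the sum of 10 neutrophil markers in the 5 pancreas libraries (x axis; blue control, red OA-AP). OA-AP library 3 is the highest in all 3 panels, with 157 CPM of Azin1, 2.25 CPM of Arg1 and 109 CPM of the markers.

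Amd1 (ENSMUSG00000075232, chr10:40287458-40302186, minus strand), S-adenosylmethionine decarboxylase, was the strongest decrease of the list. In the pancreas it fell from 33.3 and 31.3 CPM to 13.2, 13.7 and 10.9 CPM. The OA-AP libraries were all below both controls, with a spread of 1.47 CPM (SD, n = 3) around a mean of 12.6 CPM. The fold change was 2.56, a log2 fold change of -1.36 ± 0.15 (SE, adjusted p = 0.000597), and with library totals alone it was -0.64 (adjusted p = 0.0224). In adipose tissue Amd1 measured 44.4, 40.6 and 35.6 CPM in the controls and 58.4, 49.9 and 58.0 CPM in OA-AP, without overlap. The log2 fold change of 0.46 ± 0.11 (SE, adjusted p = 0.0176) stayed under the fold threshold. Amd2, a near-identical copy on the same chromosome, had 4 to 20 reads in the pancreas and 3 to 9 in adipose tissue, against 209 to 1204 reads of Amd1, and reads the 2 copies share could be assigned to either or dropped.

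Srm (ENSMUSG00000006442, chr4:148591503-148594993, plus strand), spermidine synthase, rose in adipose tissue beside Odc1. It measured 28.8, 28.4 and 28.1 CPM in the controls and 106, 72.4 and 109 CPM in OA-AP. The controls lay within 1 CPM of each other, and all OA-AP libraries were well above them. The fold change was 3.37, a log2 fold change of 1.75 ± 0.16 (SE, adjusted p = 0.000653). In the pancreas Srm measured 35.1 and 39.3 CPM in the controls and 32.8, 29.6 and 37.4 CPM in OA-AP, which overlapped. Its log2 fold change there was -0.16 ± 0.15 (SE, adjusted p = 0.432) and turned to 0.55 with library totals alone, below the fold threshold and below the shift of all genes.

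Sms (ENSMUSG00000071708, chrX:157443855-157492287, minus strand), spermine synthase, was a DEG in neither tissue. In adipose tissue it measured 8.60, 10.8 and 8.20 CPM in the controls and 8.29, 9.42 and 8.79 CPM in OA-AP, with overlap and a log2 fold change of -0.06 ± 0.15 (SE, adjusted p = 0.781). In the pancreas it had 8 to 27 reads per library, 1.72 and 0.798 CPM in the controls and 1.26 to 1.49 CPM in OA-AP, with a log2 fold change of 0.12 ± 0.45 (SE, adjusted p = 0.853). The pseudogene Sms-ps had 7 to 17 reads in the same libraries, so the pancreas value of Sms is uncertain.

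Sat1 (ENSMUSG00000025283, chrX:155213132-155216449, minus strand), spermidine/spermine acetyltransferase, was the only member upregulated in the pancreas in the main test. Some alternative runs also called Arg2, Arg1 or Odc1 upregulated there. Sat1 measured 20.9 and 22.7 CPM in the controls and 71.9, 54.7 and 88.0 CPM in OA-AP. All OA-AP libraries were above both controls, at a fold change of 3.28 and a log2 fold change of 1.72 ± 0.21 (SE, adjusted p = 0.000989). In adipose tissue Sat1 measured 70.3, 76.4 and 69.0 CPM in the controls and 103, 114 and 94.2 CPM in OA-AP, also without overlap. Its log2 fold change was 0.53 ± 0.10 (SE, adjusted p = 0.00723), under the fold threshold, and it was 0.60 and past the threshold without OA-AP library 3.

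Non-overlapping groups were common at these group sizes. In the pancreas 4 of 8 members did not overlap, against 62.3% of all genes tested. Sat1 and Arg2 were above both controls in every OA-AP library there, as were 32.9% of all genes tested, and Amd1 and Ass1 were below, as were 29.4%. In adipose tissue 7 of 10 members did not overlap, against 52.4% of all genes tested. All 7 were above every control, against 26.4% of all genes, and 0 were below, against 26%. Among the OA-AP adipose libraries, library 2 was lowest for Arg1, Arg2, Odc1, Azin1, Srm and Amd1 and highest for Nos2, Ass1, Sat1 and Sms.

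**Figure D3:**
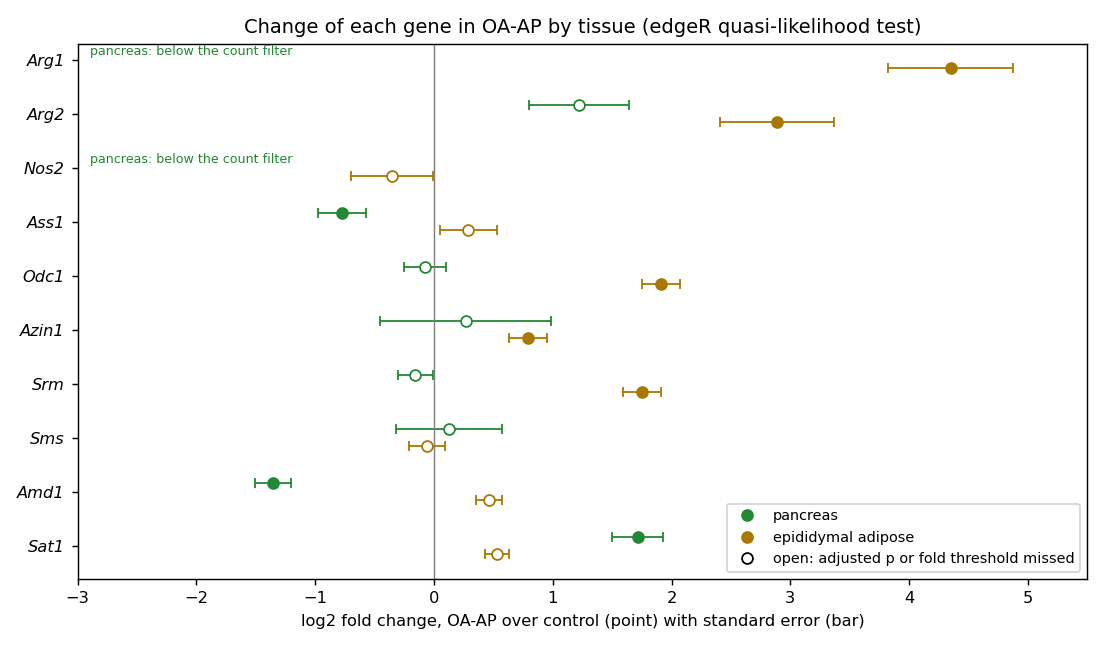
Log2 fold change of OA-AP over control (x axis, point) with its standard error (bar) for each gene (y axis) in the pancreas (green) and in epididymal adipose tissue (brown); filled points passed both thresholds, and Arg1 and Nos2 were not tested in the pancreas. Odc1, Srm and Amd1 lie further right in adipose tissue than in the pancreas, with Odc1 at 1.91 against -0.08, and Sat1 lies further right in the pancreas, at 1.72 against 0.53.

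Whether the change differed between the tissues was tested with the tissue by condition term over all 11 libraries, as the change in the pancreas minus that in adipose tissue. This term passed the thresholds for 5 of 10 members, against 20.6% of the 17046 genes tested, 10.2% with a higher and 10.4% with a lower change in the pancreas. The difference was -1.97 ± 0.26 for Odc1 (log2, SE, adjusted p = 0.00035), -1.90 ± 0.22 for Srm (adjusted p = 0.000185) and -1.81 ± 0.18 for Amd1 (adjusted p = 9.39e-05). For Sat1 it was 1.19 ± 0.24 (adjusted p = 0.00465). These 4 genes kept their calls under every alternative run, with library totals alone giving -1.14 for Odc1, -1.05 for Srm, -0.96 for Amd1 and 2.03 for Sat1. The difference for Ass1, -1.06 ± 0.33 (adjusted p = 0.0427), missed the threshold in 9 of the 11 runs without 1 library (adjusted p 0.0534 to 0.164) and kept it without pancreas OA-AP library 3 or adipose control library 2. With library totals alone it was -0.23 (adjusted p = 0.669).

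The differences for Azin1 (-0.50 ± 0.69, SE, adjusted p = 0.671), Arg2 (-1.64 ± 0.67, adjusted p = 0.11) and Sms (0.19 ± 0.41, adjusted p = 0.811) missed the threshold. For Azin1 the difference was -1.48 without pancreas OA-AP library 3 (adjusted p = 0.0012). For Arg2 it was -1.99 without that library (adjusted p = 0.0485) and -2.24 without adipose control library 2 (adjusted p = 0.0431). No difference is given for Arg1 and Nos2, whose pancreas controls were at 0.

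The ratio of Sat1 to Odc1 TPM within a library does not depend on how libraries are scaled. Its log2 value was -2.53 and -2.43 in control pancreas and -0.59, -0.80 and -0.70 in OA-AP pancreas. In adipose tissue it was 0.40, -0.04 and 0.15 in the controls and -1.26, -0.95 and -1.46 in OA-AP. The ratio was thus higher in every OA-AP pancreas library and lower in every OA-AP adipose library than in their controls. The mean rose by 1.79 in the pancreas and fell by 1.39 in adipose tissue, each with an exact two-sided permutation p of 0.1 (0.2 after adjustment over the 4 ratio tests), the smallest p these group sizes allow.

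On the TPM scale, which corrects for gene length, Odc1 was the most abundant member in control pancreas at 43.9 ± 3.79 TPM (SD, n = 2), followed by Srm (23.2), Azin1 (10.6), Amd1 (9.15), Sat1 (7.84), Ass1 (4.78), Arg2 (1.36) and Sms (0.215), with Arg1 and Nos2 at 0. Azin1 and Amd1 overlapped in that order, as did Arg1 and Nos2, and the other neighbours did not. In control adipose tissue Sat1 led at 80.7 ± 4.29 TPM (SD, n = 3), followed by Odc1 (72.5), Srm (55.4), Amd1 (35.3), Azin1 (34.1), Ass1 (6.98), Nos2 (5.36), Sms (4.77), Arg1 (3.88) and Arg2 (0.568). Here Sat1 and Odc1 overlapped, as did Amd1 and Azin1 and the neighbours from Ass1 down to Arg1. In OA-AP adipose tissue the order was Odc1 (237 ± 17.8 TPM, SD, n = 3), Srm (162), Sat1 (102), Arg1 (67.9), Azin1 (51.1), Amd1 (42.3), Ass1 (7.43), Sms (3.99), Nos2 (3.67) and Arg2 (3.63). Sat1 overlapped with Arg1, Arg1 with Azin1, Azin1 with Amd1, Sms with Nos2 and Nos2 with Arg2. In OA-AP pancreas it was Odc1 (75.6 ± 9.91 TPM, SD, n = 3), Sat1 (47.0), Srm (38.1), Azin1 (21.9), Amd1 (6.61), Arg2 (5.71), Ass1 (5.05), Arg1 (0.701), Sms (0.423) and Nos2 (0.0526). There Sat1 overlapped with Srm, Srm with Azin1, Amd1 with Arg2, Arg2 with Ass1 and Arg1 with Sms. TPM are shares of a library, and acinar genes take most of each pancreas library, so TPM levels were not compared between tissues or groups.

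Control pancreas was compared with control adipose tissue in the same fit over all 11 libraries. There 8 of 10 members passed the thresholds, 6 higher and 2 lower in the pancreas, against 55.5% of all genes tested (26% higher and 29.4% lower). With TMM factors Arg2 was higher in the pancreas by 4.87 ± 0.56 (log2, SE, adjusted p = 1.36e-05), Ass1 by 3.06, Odc1 by 2.89, Srm by 2.36, Azin1 by 1.92 and Amd1 by 1.66, and Sms was lower (log2 difference -0.87). Nos2 was at least 6.96-fold higher in adipose tissue, against a floor of 3 counts per control pancreas library. Arg1 was at least 2.54-fold higher in adipose tissue, with an adjusted p of 0.116 in the TMM fit and 0.0049 in DESeq2, and Sat1 differed by 0.25 ± 0.18 (SE, adjusted p = 0.242). With library totals alone, Amd1 (-0.81), Azin1 (-0.55), Srm (-0.11) and Sat1 (-2.22) had the opposite sign. In that run only Arg2 was called higher in the pancreas (log2 difference 2.41) and 5 members were called lower. Of all 17046 genes, 1140 were called higher and 14228 lower there. The call for Sms was lost without pancreas control library 2 (adjusted p = 0.259) or adipose control library 2 (adjusted p = 0.0682). Tissue and count table differ together in this comparison.

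The members sit in a wider pathway of 59 other genes, which supply arginine, use ornithine, carry cationic amino acids and polyamines, degrade polyamines or recycle their methionine. In the pancreas 46 of them were tested, of which 10 were upregulated and 12 downregulated, with a median log2 fold change of -0.29 against 0.04 over all genes, of which 16.2% were upregulated and 13.5% downregulated. With library totals alone 19 were upregulated and 7 downregulated, the latter all among the 12. That run had 5843 of all 12884 genes upregulated and 506 downregulated. Without 1 library the counts were 5 to 9 upregulated and 9 to 13 downregulated, and without control library 1 or 2 only 5 were upregulated. Over all genes, 898 of 13619 were upregulated without control library 1 and 833 of 13716 without control library 2. In adipose tissue 51 were tested, with 15 upregulated and 7 downregulated and a median of 0.06 against -0.01, where 12.1% of all genes were upregulated and 13% downregulated. Library totals alone gave 12 and 10 there, against 1365 and 2885 of all 15839 genes. Without 1 adipose library, 10 to 15 were upregulated and 4 to 7 downregulated, with 10 upregulated without OA-AP library 3 and 4 downregulated without control library 1 or OA-AP library 1. Over all genes, 1606 of 16287 were upregulated without OA-AP library 3. Downregulated were 1518 of 16101 without control library 1 and 1800 of 16285 without OA-AP library 1. The tissue by condition term passed for 17 of 52 genes, against 20.6% of all genes tested, 3 higher and 14 lower in the pancreas. With library totals alone it passed for 17 higher and 7 lower, against 6153 higher and 374 lower of all 17046 genes. Without pancreas control library 1 it passed for 1 higher and 14 lower, against 1195 and 1287 of all 17861 genes.

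The group that turns ornithine and glutamate into proline, glutamate and creatine had 6 of 8 genes downregulated in the pancreas and 0 upregulated, where 13.5% and 16.2% of all genes were. Gamt, which makes creatine, fell from 158 and 182 CPM to 6.20, 6.86 and 8.58 CPM (log2 fold change -4.56, adjusted p = 1.69e-05). Pycr1, a mitochondrial enzyme of proline synthesis, fell from 53.0 and 56.3 CPM to 3.62, 5.09 and 4.81 CPM (log2 fold change -3.60). Gatm, which transfers the amidino group of arginine to glycine in the first step of creatine synthesis, fell from 452 and 472 CPM to 88.5, 106 and 93.2 CPM (log2 fold change -2.27). None of these 3 genes had overlapping groups, and each kept its call without any 1 library. In adipose tissue the same group had 2 upregulated and 3 downregulated genes of 8, where 12.1% and 13% of all genes were.

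Gatm was also lower in OA-AP adipose tissue, at 6.79, 14.3 and 5.99 CPM in the controls and 2.44, 2.21 and 4.14 CPM in OA-AP. The highest value was that of adipose control library 2, which also held acinar RNA. The log2 fold change of -1.62 (adjusted p = 0.0215) was -1.12 without that library, and it missed the threshold without OA-AP library 1 (adjusted p = 0.0608) or 2 (0.0587). Aldh18a1, which makes the common precursor of proline and ornithine from glutamate, changed in opposite directions. It fell in the pancreas from 53.9 and 55.1 CPM to 11.4, 13.8 and 9.78 CPM (log2 fold change -2.22, adjusted p = 0.000131). In adipose tissue it rose from 10.6, 13.9 and 11.4 CPM to 26.6, 30.4 and 27.9 CPM (log2 fold change 1.25, adjusted p = 0.000945). The difference between the tissues was -3.46 ± 0.21 (log2, SE, adjusted p = 1.14e-05).

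Of 13 transport genes, 2 were upregulated and 1 downregulated among 10 tested in the pancreas. Among 12 tested in adipose tissue, 5 were upregulated and 1 downregulated. For this list and those that follow, the shares over all genes tested in the pancreas were 16.2% upregulated and 13.5% downregulated. In adipose tissue these shares were 12.1% and 13%. Slc7a2, a cationic amino acid transporter, fell in the pancreas from 42.6 and 52.0 CPM to 6.88, 12.0 and 4.86 CPM (log2 fold change -2.59, adjusted p = 0.00227). Slc7a1, the widely expressed arginine transporter, rose in adipose tissue from 18.7 to 23.6 CPM in the controls to 38.1 to 46.8 CPM in OA-AP (log2 fold change 1.05, adjusted p = 0.00148). Slc7a6, a light chain that exchanges cationic amino acids, rose in both tissues, by log2 fold changes of 1.97 in the pancreas and 1.30 in adipose tissue, and its heavy chain Slc3a2 by 0.80 in adipose tissue. Atp13a3, a polyamine importer, had a log2 fold change of 0.59 in the pancreas (adjusted p = 0.0221), and this call was lost without control library 1 (adjusted p = 0.132), control library 2 (0.152), OA-AP library 1 (0.0571) or OA-AP library 3 (log2 fold change 0.41).

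Among the antizymes, Azin2 and Agmat, 1 of 2 tested genes was upregulated and 1 downregulated in the pancreas, and 0 of 3 were DEGs in adipose tissue. Polyamine breakdown enzymes had 2 upregulated and 1 downregulated of 4 in the pancreas, and 1 upregulated of 4 in adipose tissue. Oaz1, the main antizyme, measured 120 and 139 CPM in the controls and 79.5, 77.1 and 65.5 CPM in OA-AP (log2 fold change -0.80, adjusted p = 0.00411). With library totals alone this was -0.08, and without control library 2 the adjusted p was 0.0685. Oaz2 had a log2 fold change of 0.59 (adjusted p = 0.0445) that missed a threshold in 4 of the 5 runs without 1 library, in all but that without OA-AP library 2. Smox, spermine oxidase, measured 23.8 and 23.5 CPM in control and 56.8, 44.4 and 88.8 CPM in OA-AP pancreas (log2 fold change 1.42, adjusted p = 0.00967), with adjusted p of 0.0832 and 0.091 without control library 1 or 2. In adipose tissue Smox measured 10.3 to 11.9 CPM in the controls and 12.9 to 22.8 CPM in OA-AP (log2 fold change 0.76, adjusted p = 0.0261), a call lost without control library 1 or 3 or OA-AP library 1 or 3 (adjusted p 0.0677 to 0.0811). Paox, which oxidises acetylated polyamines, had a log2 fold change of 0.64 in the pancreas (adjusted p = 0.0236) that held only without OA-AP library 3 among these runs (otherwise adjusted p 0.0516 to 0.174). Aldh9a1, which oxidises the aldehydes of this route, was at -1.19 (adjusted p = 0.00411), with an adjusted p of 0.061 without control library 2.

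In the methionine cycle and salvage group 4 of 9 tested genes were upregulated and 2 downregulated in the pancreas, and 2 of 8 were upregulated and 1 downregulated in adipose tissue. Ahcy, which clears S-adenosylhomocysteine, rose in both, from 283 and 257 CPM to 646 to 665 CPM in the pancreas (log2 fold change 1.28) and from 25.6 to 35.2 CPM to 56.4 to 95.4 CPM in adipose tissue (log2 fold change 1.32). Mat1a, an S-adenosylmethionine synthetase, rose in the pancreas from 69.8 and 88.6 CPM to 351 to 572 CPM (log2 fold change 2.51), and Adi1 of the salvage pathway fell (log2 fold change -2.19). Mtap, which cleaves the methylthioadenosine released by Srm and Sms, rose in adipose tissue (log2 fold change 0.80), and Apip of the salvage pathway had a log2 fold change of -0.63 there, which missed the fold threshold without control library 1 (-0.58). Eif5a, the protein that spermidine modifies with hypusine, rose in adipose tissue from 267 to 321 CPM to 475 to 637 CPM (log2 fold change 0.94, adjusted p = 0.00352). It was the only DEG of the 4 hypusine genes tested in adipose tissue, and 0 of the 3 tested in the pancreas were DEGs.

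Of the other genes of nitric oxide synthesis, 1 of 6 was upregulated in the pancreas, and 3 of 8 were upregulated and 2 downregulated in adipose tissue. Gch1, which starts the synthesis of the synthase cofactor tetrahydrobiopterin, rose in both, from 6.61 and 7.88 CPM to 23.4 to 29.0 CPM in the pancreas (log2 fold change 1.87) and from 4.21 to 6.99 CPM to 11.1 to 17.9 CPM in adipose tissue (log2 fold change 1.42). Pts, the next enzyme of that route, fell in adipose tissue (log2 fold change -0.83). Prmt1, an arginine methyltransferase, had a log2 fold change of 0.59 there, which missed the fold threshold without OA-AP library 1 or 3 (0.56 in both). In the arginine supply group Cad, which starts pyrimidine synthesis, rose in adipose tissue (log2 fold change 1.10), as the only DEG of 4 tested. Asl, the enzyme after Ass1, was the only DEG of 4 tested in the pancreas (log2 fold change -0.65, adjusted p = 0.0199). It was at 0.07 with library totals alone, and its adjusted p was 0.186 without control library 2 and 0.0621 without OA-AP library 1.

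**Figure D4:**
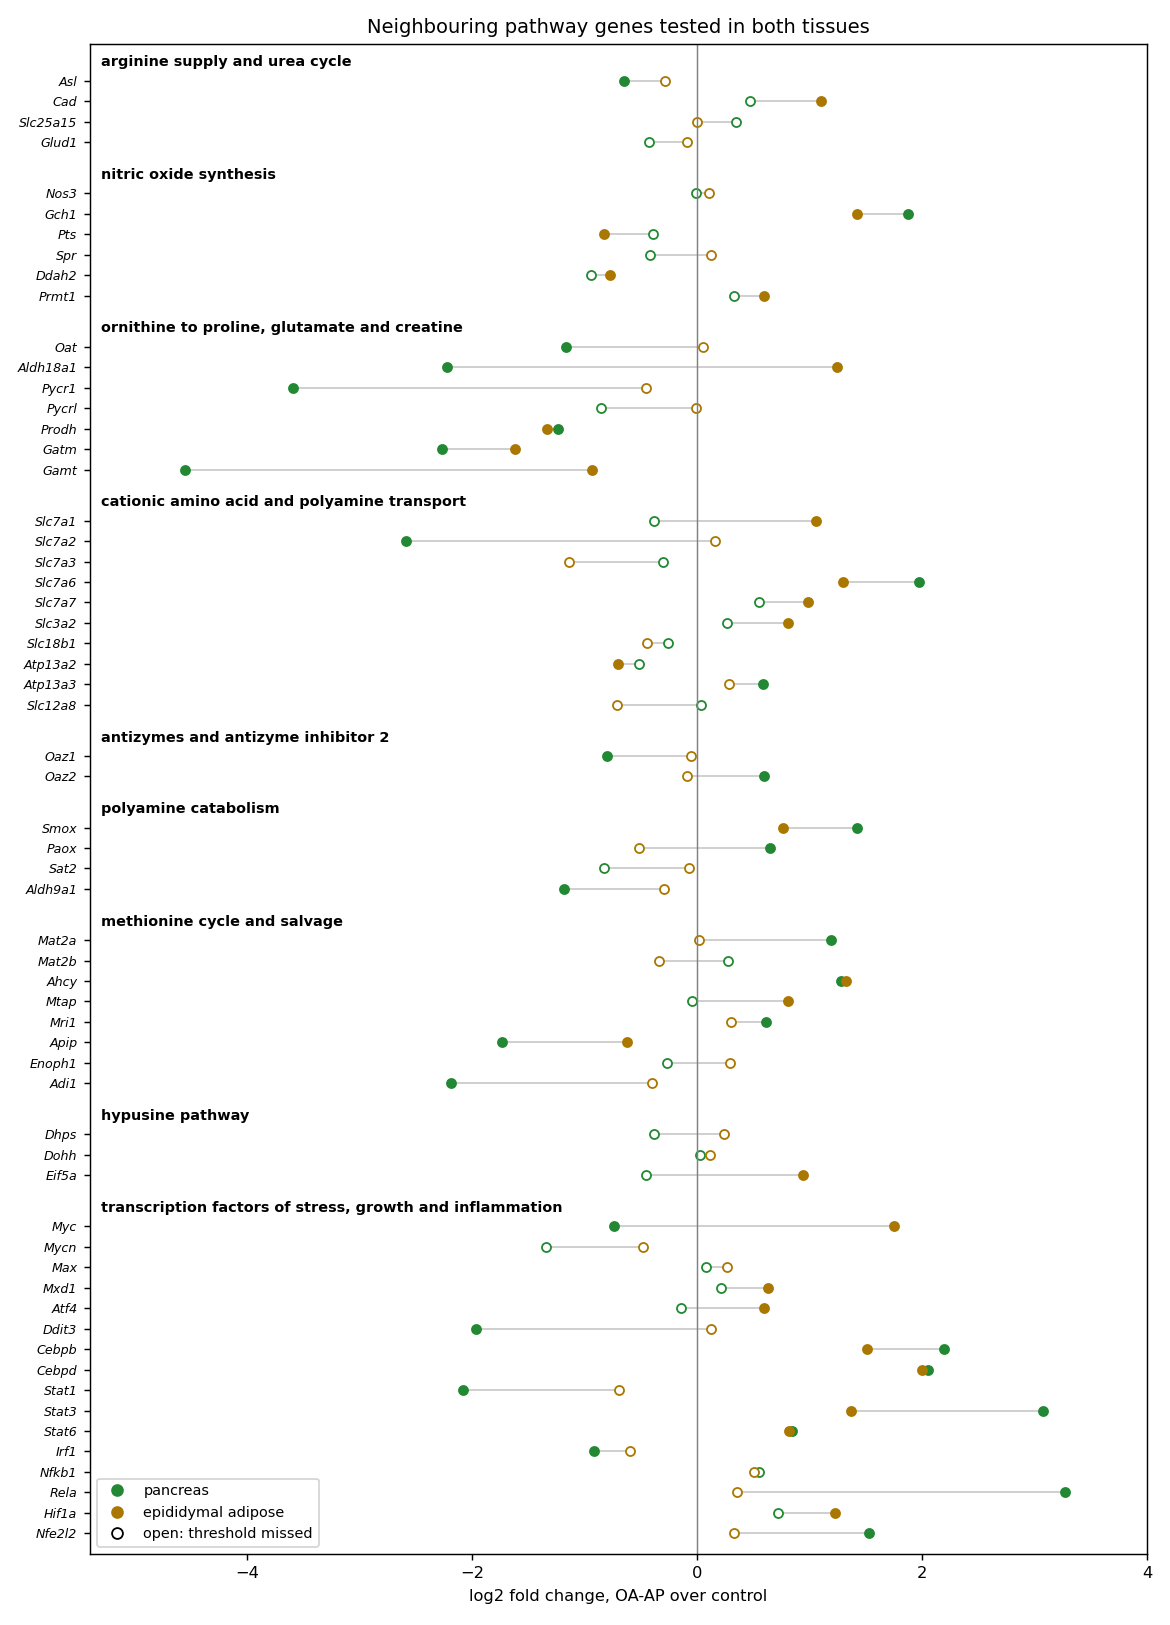
Log2 fold change of OA-AP over control (x axis) of most neighbouring pathway genes and of 16 transcription factors (y axis) that were tested in both tissues, in the pancreas (green) and epididymal adipose tissue (brown); filled points passed both thresholds and grey lines join the 2 values of a gene. Aldh18a1 and Myc are DEGs on opposite sides of 0, and Gamt at -4.56 is the lowest value.

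Immune cell markers also differed in adipose tissue. The 10 neutrophil markers summed to 17.8 to 36.3 CPM in the controls and 192 to 225 CPM in OA-AP. In every OA-AP library 8 of 10 were above every control, against 26.4% of all genes tested. The 10 macrophage markers summed to 1084 to 1353 CPM in the controls and 1044 to 1480 CPM in OA-AP, which overlapped, and 3 of 10 were above every control. The 8 lymphocyte markers summed to 12.0, 50.5 and 17.3 CPM in the controls and 3.63 to 4.65 CPM in OA-AP. The highest sum was that of adipose control library 2, which also held acinar RNA. In every OA-AP library 7 of the 8 were below every control, against 26% of all genes tested. No marker of the 3 lists was at 0 in all 6 libraries. The part of these cells in the changes of Arg1, Odc1 and Srm was not tested.

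Over the 11 libraries, the genes whose log2 CPM, centred on each tissue's mean, was most like that of Arg1 among 11977 genes were Anxa7 (Pearson r 0.988), Hsp90aa1 (0.984) and Hilpda (0.983). For Odc1 they were Spp1 (0.985), Gnl3 (0.984) and Uck2 (0.982). The points share libraries and the contrast between groups, and these values are a description.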

How the data were processed

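RNA sequencing of pancreas (5 libraries) and epididymal adipose tissue (6 libraries) was analysed. The authors trimmed paired reads of 150 bases with Trim Galore 0.6.6, checked them with fastp 0.20.1, mapped them to GRCm38 with STAR 2.7.4a and counted them with featureCounts 2.0.1. They deposited raw counts per gene for each tissue; annotation release and strand setting are not given in the sources used here. Samples were grouped by their labels. Nothing states that samples of a group are separate mice, so p-values measure the spread between these samples. Counts of replicates differed by a chi-square of at least 7.56 per degree of freedom.

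Low counts were filtered with filterByExpr, libraries scaled with TMM, and all genes tested in each tissue with edgeR 4.0.16 in R 4.3.3 (robust quasi-likelihood test, Benjamini-Hochberg adjustment). Standard errors are the log2 fold change over the square root of F. One fit over 11 libraries and 17046 genes gave the tissue by condition term and the control contrast. TPM used the deposited gene lengths. Floors are 3 counts per library and cover counting error only. Scripts were tested on simulated data. The members and gene lists were chosen with earlier results of these data known. Named genes were all members, up to 3 DEGs per list and tissue by smallest p, the 3 genes most correlated with Arg1 and with Odc1, and near-identical copies; Myc was added after its values were seen. The values of 1 list gene are not reported here, though list counts include it. Marker lists for mesothelial, duct and islet cells were also counted: in the pancreas they summed to 18.1 to 34.3, 226 to 230 and 932 to 1156 CPM in the controls and 24.8 to 27.1, 117 to 183 and 1275 to 1558 CPM in OA-AP.

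Alternatives were DESeq2 1.42.0, its size factors, library totals alone, factors without acinar genes, no filter, 10 counts in every sample, fold thresholds of 2 or none, the replicate block and each library left out. Whether pancreas and adipose libraries come from the same mice is not stated, and the fit over 11 libraries treats them as separate samples.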

Additional observations from a re-analysis of the deposited data

Results flagged for a closer look

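No group had more than 3 libraries, and single libraries were not tested as outliers. By the tissue by condition term of edgeR's quasi-likelihood test, the change differed between the tissues for 5 members, and for Myc and Aldh18a1 among genes called in opposite directions in the 2 tissues. It is given here as the log2 change in the pancreas minus that in adipose tissue. The change was lower in the pancreas for Odc1 (-1.97), Srm (-1.90), Amd1 (-1.81), Ass1 (-1.06), Myc (-2.48) and Aldh18a1 (-3.46), and higher for Sat1 (1.19). The value for Ass1 was -0.23 with library totals alone (adjusted p = 0.669), and its adjusted p was 0.1 with the replicate block. Amd1 was downregulated in the pancreas and under the fold threshold in adipose tissue, while Odc1 and Srm were upregulated in adipose tissue and missed the threshold in the pancreas.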

How the results depend on the processing

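With library totals alone, pancreas log2 fold changes of Odc1 (0.62), Srm (0.55) and Asl (0.070) changed sign, as did the tissue by condition difference of Azin1 (0.28) and, between control pancreas and adipose tissue, those of Azin1 (-0.55), Sat1 (-2.22), Srm (-0.11) and Amd1 (-0.81). Same-numbered libraries were not treated as pairs, since the labels do not tie them and their deviations from group means correlated at -0.16 to 0.06 between groups and -0.05 to 0.13 between tissues, which does not show whether tissues share mice. The replicate block gave -0.71 for Azin1 in the pancreas (adjusted p = 0.000796). Only OA-AP had a replicate 3 there, so the block's term for replicate 3 fitted that library alone. OA-AP 3 thus had no part in the block's pancreas fold changes, and leaving it out gave -0.75 for Azin1. The block also took the difference of Ass1 to -1.15 (adjusted p = 0.1) and that of Sms between controls to -0.97 (adjusted p = 0.083). It gave Arg1 a call between controls (adjusted p = 0.031) and changed no other member's call in these 4 comparisons. Of the calls printed for other genes within a tissue, it ended those of Gatm and Smox in adipose tissue and of Atp13a3 and Oaz2 in the pancreas. With 1 library left out, pancreas values ranged from -0.31 to 0.042 for Odc1 (highest without OA-AP 2), -0.75 to 0.61 for Azin1 (lowest without OA-AP 3) and -0.30 to 0.80 for Sms (lowest without control 2). Adipose values ranged from -0.57 to 0.12 for Nos2 (highest without control 1) and -0.12 to 0.080 for Sms (highest without control 2), and the tissue by condition difference of Sms from -0.25 to 0.87 (lowest without pancreas control 2). The cause of these changes was not tested.

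Members called in the pancreas were 3, but 5 with no filter on low counts, where Arg1 and Arg2 were added; 2 to 4 were called with 1 library left out. In adipose tissue 5 to 6 were called with 1 library left out, for the tissue by condition term 4 to 7 and between control tissues 7 to 8, or 5 (all higher in the pancreas) with 10 counts in every sample, where only 6 were tested. With 1 TPM added, the difference in the Arg1 share was -9.83 points in the pancreas and 17.4 in adipose tissue, and that in the Sat1 to Odc1 ratio 1.66 in the pancreas. With 1 library left out the share differed by 4.78 to 11.7 points in the pancreas and 4.68 to 10.1 in adipose tissue, and the log2 ratio by 1.73 to 1.84 and -1.53 to -1.28.

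Over all genes, 3834 DEGs in the pancreas became 6349 with library totals alone (5843 up against 2090 with TMM), 2464 at a fold of 2, 1687 without control 1 and 1495 without control 2. The 3981 in adipose tissue became 2228 at a fold of 2 and 4250 (1365 up against 1915) with library totals alone. The 3507 of the tissue by condition term became 6527 (6153 higher in the pancreas against 1732), 2156 with the replicate block and 2332 without pancreas control 2. The 9454 between controls became 15368 (1140 higher in the pancreas against 4438), and 5808 with 10 counts in every sample. With 2 and 3 pancreas libraries a group, Arg1, Nos2 and Sms were too shallow there to show small differences.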

Other observations

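Among 16 transcription factors of stress, growth and inflammation, 6 were upregulated and 4 downregulated in the pancreas, and 8 were upregulated and 0 downregulated in adipose tissue. Over all genes tested, 16.2% were upregulated and 13.5% downregulated in the pancreas, and 12.1% and 13% in adipose tissue. Myc, a known activator of Odc1 transcription, was chosen after its values were seen and measured 32.4 and 26.5 CPM in control pancreas and 17.1, 18.6 and 17.2 CPM in OA-AP pancreas (log2 fold change -0.74, adjusted p = 0.00652, edgeR's quasi-likelihood test). In adipose tissue it rose from 23.4, 19.9 and 17.0 CPM to 77.5, 49.1 and 75.8 CPM (log2 fold change 1.75, adjusted p = 0.00154). The tissue by condition difference was -2.48 ± 0.26 (log2, SE, adjusted p = 0.000112) and -1.64 with library totals alone. The pancreas value alone was -0.04 with library totals and missed the threshold without control library 1 (adjusted p = 0.0837). Stat3 rose in both tissues, with log2 fold changes of 3.08 in the pancreas and 1.36 in adipose tissue, and Cebpb with 2.19 and 1.51. Rela rose in the pancreas (log2 fold change 3.27) and Hif1a in adipose tissue (1.23).

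Of 10 genes known from alternative macrophage activation, 2 of 8 tested were upregulated and 1 downregulated in the pancreas. The shares over all genes tested there were 16.2% and 13.5%. In adipose tissue 5 of 9 were upregulated and 1 downregulated, against 12.1% and 13% of all genes tested. In adipose tissue Chil3, a chitinase-like protein, rose beside Arg1 from 1.33, 3.01 and 3.57 CPM to 171, 49.4 and 115 CPM (log2 fold change 5.40, adjusted p = 0.00144). Retnla, another gene of the list, fell from 286, 416 and 310 CPM to 66.9, 77.1 and 97.0 CPM (log2 fold change -2.07, adjusted p = 0.000722). Il4ra, a subunit of the interleukin-4 receptor, rose from 63.4, 84.1 and 68.3 CPM to 535, 438 and 604 CPM (log2 fold change 2.87). In the pancreas Il4ra had a log2 fold change of 3.06 (adjusted p = 0.0206, and 0.111 and 0.113 without control library 1 or 2), Retnla of -2.13 (adjusted p = 0.0152, and 0.187 without control library 1) and Socs2 of 1.61 (adjusted p = 0.00328, and 0.0529 without control library 2).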
